A study of Mus musculus with 6 samples.

Results

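FXR peaks in later introns are the FXR binding sites that the authors' annotation placed in any intron of a transcript other than its first. They were chosen by annotation alone, as peaks whose annotation begins with intron and does not name intron 1. The list from Bcl6 fl/fl liver (WT) held 5408 such peaks of 20040, or 27.0% (95% Wilson interval 26.4 to 27.6%). The list from Bcl6LKO liver (LKO) held 3456 of 12495, or 27.7% (26.9 to 28.5%). First introns held 3911 WT and 2467 LKO peaks and served as the class to compare with. The shares of the later introns in the lists differed by less than their intervals.

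FXR ChIP-seq was made from livers of male C57BL/6 mice, and each genotype had 2 ChIP libraries and 1 input. WT mice carried Bcl6 fl/fl alleles without Cre, and LKO mice carried the same floxed alleles with Alb-cre, so both groups were floxed. The albumin promoter directs deletion to hepatocytes, and Bcl6 in the other cells of the liver was not measured here. Age was not given in the sources used here, and the labels name separate samples without saying that each came from its own mouse. The comparison asks where FXR binds when hepatocytes lack BCL6, a transcriptional repressor. The ChIP libraries held 2883717 to 22637613 tags, and WT replicate 2 was the shallow one. The median later-intron peak held an estimated 8.55 tags there and 38.0 tags in WT replicate 1. In LKO it held 35.6 and 32.8 tags. Peaks were called on the pooled replicates of a genotype, so counts and shares have no replicate spread, and their intervals cover counting error over peaks only.

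FXR, encoded by Nr1h4, is the nuclear receptor that senses bile acids. It binds DNA mostly together with RXR, and its preferred element is a pair of AGGTCA hexamers that face each other across a 1-base spacer, the inverted repeat IR1. In liver it lowers bile acid synthesis and raises bile acid export and phospholipid secretion. Many enhancers of liver genes lie inside introns, so a transcription factor bound in a later intron may act on the host gene or on another gene nearby.

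The sequences of 8 later-intron peaks with an IR1 site come first, because they show what an intronic FXR element looks like. The 5 strongest WT peaks with at most 1 mismatch lay in Usp18, Mrnip, Gata4, Abcb4 and Kyat3. Those in Fgf15, Acaca and Per2 were the other peaks with at most 1 mismatch when each host gene of the gene lists described further on was taken by its strongest WT peak. All are given on the plus strand of mm10, 5′ to 3′, with the IR1 match in capitals.
Usp18, chr6:121270240-121270450: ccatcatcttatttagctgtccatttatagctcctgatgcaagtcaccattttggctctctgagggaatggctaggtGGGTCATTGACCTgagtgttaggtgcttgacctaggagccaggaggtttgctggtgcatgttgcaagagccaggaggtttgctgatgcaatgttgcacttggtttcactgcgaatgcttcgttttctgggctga
Mrnip, chr11:50197609-50197819: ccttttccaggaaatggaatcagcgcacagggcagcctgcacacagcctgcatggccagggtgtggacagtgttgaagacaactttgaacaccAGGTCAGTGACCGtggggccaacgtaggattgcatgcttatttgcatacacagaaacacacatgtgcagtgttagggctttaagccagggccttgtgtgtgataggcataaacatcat
Gata4, chr14:63212271-63212481: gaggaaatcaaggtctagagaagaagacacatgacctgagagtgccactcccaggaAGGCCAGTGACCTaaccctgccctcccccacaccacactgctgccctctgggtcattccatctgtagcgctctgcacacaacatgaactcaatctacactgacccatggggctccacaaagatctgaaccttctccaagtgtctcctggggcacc
Abcb4, chr5:8928626-8928836: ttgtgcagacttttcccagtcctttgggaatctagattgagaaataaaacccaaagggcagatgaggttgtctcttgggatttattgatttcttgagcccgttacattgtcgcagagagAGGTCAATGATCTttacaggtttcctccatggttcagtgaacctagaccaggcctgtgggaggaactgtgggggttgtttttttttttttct
Kyat3, chr3:142707138-142707348: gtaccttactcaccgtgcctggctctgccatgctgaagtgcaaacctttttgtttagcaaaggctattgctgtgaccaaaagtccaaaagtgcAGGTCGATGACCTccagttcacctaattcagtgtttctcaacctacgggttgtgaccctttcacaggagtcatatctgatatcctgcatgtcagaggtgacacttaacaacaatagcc
Fgf15, chr7:144898388-144898598: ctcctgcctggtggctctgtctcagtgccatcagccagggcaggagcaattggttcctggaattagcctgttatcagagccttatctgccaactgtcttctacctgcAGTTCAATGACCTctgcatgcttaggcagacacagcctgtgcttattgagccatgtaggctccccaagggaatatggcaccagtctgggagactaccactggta
Acaca, chr11:84324947-84325157: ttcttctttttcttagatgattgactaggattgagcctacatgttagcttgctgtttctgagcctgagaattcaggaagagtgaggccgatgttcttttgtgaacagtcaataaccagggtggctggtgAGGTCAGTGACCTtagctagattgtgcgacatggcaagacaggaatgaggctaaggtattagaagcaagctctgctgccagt
Per2, chr1:91441914-91442124: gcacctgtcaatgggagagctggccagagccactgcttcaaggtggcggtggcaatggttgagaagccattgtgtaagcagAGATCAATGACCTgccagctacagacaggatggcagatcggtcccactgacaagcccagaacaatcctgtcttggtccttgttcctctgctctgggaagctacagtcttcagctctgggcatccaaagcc

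Against the consensus, with positions counted from 1 at the 5′ end of the 13-base match and the consensus base given first, the single changes were A1G in Usp18, T13G in Mrnip, T4C in Gata4, C11T in Abcb4, A6G in Kyat3, G3T in Fgf15 and G3A in Per2. The Acaca site had 0 mismatches. Over the 718 WT later-intron peaks with an IR1 match of at most 2 mismatches, the best kept bases were the G at position 2, in 92.3%, the A at position 6, in 90.9%, and the C at position 5, in 90.4%. The least kept were the A at position 10, in 75.1%, and the T at position 4, in 75.5%. The 635 LKO matches showed the same extremes, 92.3% at position 2 and 72.0% at position 10. The spacer had no preferred base, with at most 27.3% for any letter in WT.

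Abcb4 encodes the canalicular phospholipid flippase, a known FXR target. Its peak lay at chr5:8928626-8928836 in intron 14 of 27, 35010 bp from the nearest transcription start site (TSS). Log2 tags were 7.21 and 8.44 in the WT libraries and 7.88 and 7.89 in the LKO libraries, against 0.051 and 2.56 in the inputs. The LKO input value stood above the 95th percentile of its list, 2.49. Relative to the median shared peak of the same library, the WT level was 2.55 ± 0.50 and the LKO level 2.94 ± 0.14 (log2, SD, n = 2), and the groups overlapped.

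The other 4 strong IR1 peaks lay in genes outside the gene lists. Usp18 encodes a protease that removes ISG15, and its peak (chr6:121270240-121270450) lay in the last of 10 introns. It had log2 tags of 8.02 and 8.88 in WT and 8.42 and 8.37 in LKO. The Mrnip peak (chr11:50197609-50197819) lay in the last of 6 introns and had 8.01 and 8.65 in WT and 8.35 and 8.31 in LKO. Its assigned gene was Sqstm1, which encodes the autophagy receptor p62. Gata4 encodes a transcription factor of endoderm and heart, and its peak in intron 2 (chr14:63212271-63212481), assigned to Neil2, had 7.75 and 8.48 in WT and 7.69 and 7.98 in LKO. The Kyat3 peak, in intron 2 of a kynurenine aminotransferase gene (chr3:142707138-142707348), had 7.36 and 8.08 in WT and 7.67 and 7.65 in LKO. The LKO input values at Usp18, Gata4 and Kyat3, 3.06, 2.55 and 2.55, were above the 95th percentile of that list, while the WT input values of the same peaks were at most 0.14. On the centred scale both LKO values lay above both WT values at Usp18, Mrnip and Kyat3, and the groups overlapped at Gata4. Over all peaks shared by the lists, LKO lay above in this way in 29.8%, and the groups did not overlap in 55.1%.

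Fgf15 encodes the hormone that carries the FXR signal from the ileum to the liver. Its peak (chr7:144898388-144898598) lay in intron 2 of 2 and had log2 tags of 5.27 and 5.20 in WT and 5.87 and 5.26 in LKO. Acaca encodes acetyl-CoA carboxylase, and its peak (chr11:84324947-84325157) lay in intron 39 of 53 with 4.91 and 6.44 in WT and 5.50 and 5.53 in LKO. Per2, a repressor of the circadian clock, had its peak (chr1:91441914-91442124) in intron 6 of 22 with 5.93 and 6.98 in WT and 6.17 and 6.02 in LKO. These 3 were of middle to high strength in the WT list, at its 71.6th, 81.5th and 91.7th percentiles. Centred, both LKO values lay above both WT values at Fgf15, as in 29.8% of all shared peaks, and the groups overlapped at Acaca and Per2.

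Later-intron peaks were most frequent in intron 2, and the density of peaks fell with intron number. Intron 2 held 1703 WT peaks (31.5%), intron 3 held 909 (16.8%) and intron 11 or later held 925 (17.1%). The LKO counts were 1106, 563 and 587, or 32.0%, 16.3% and 17.0%. Per Mb of intron of that number in RefSeq, the WT list had 15.2 peaks in first introns, 10.2 (9.69 to 10.8, exact Poisson interval) in intron 2, 8.92 in intron 3 and 5.38 (4.96 to 5.82) in intron 11 or later. The LKO list had 9.65, 6.74, 5.68 and 3.41. Intergenic sequence had 4.16 WT and 2.53 LKO peaks per Mb, so that even late introns were denser than sequence between genes.

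**Figure D1:**
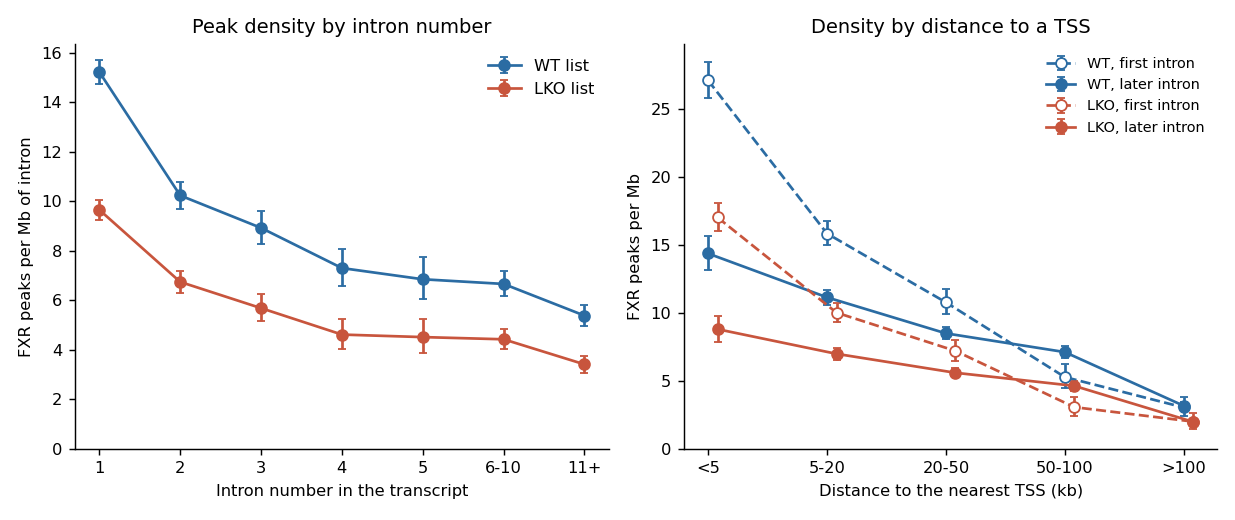
FXR peaks per Mb of RefSeq intron by intron number (left) and by distance to the nearest TSS in kb (right), for the WT and LKO lists, with 95% exact Poisson intervals as bars. WT density falls from 15.2 per Mb in first introns to 5.38 in intron 11 or later, and first introns are denser up to 50 kb from a TSS but less dense between 50 and 100 kb.

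The gap between first and later introns depended on the distance to a TSS. Over all distances, sequence that RefSeq places only in first introns had 1.99 times the WT peak density of sequence only in later introns (95% interval 1.91 to 2.07). Within 5 kb of a TSS the ratio was 1.89 (1.71 to 2.08), and between 5 and 20 kb it was 1.42 (1.32 to 1.53). Between 50 and 100 kb it was 0.742 (0.622 to 0.885), so later introns were the denser class there. Beyond 100 kb it was 0.961 (0.754 to 1.23), with no difference shown. The LKO list gave 1.97 over all distances, and 1.93, 1.43, 0.662 (0.526 to 0.833) and 1.01 in the same ranges of distance. The plot of density by distance shows these curves crossing in both lists.

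Later-intron peaks lay farther from start sites than first-intron peaks, but in shorter introns and nearer to exons. The median host intron was 11273 bp long in WT and 10863 bp in LKO, against 23221 and 23345 bp for first-intron peaks. The median distance to the nearest exon was 2211 and 2154 bp, against 3836 and 3916 bp. The median distance to the nearest TSS of any gene was 24303 bp in WT and 24826 bp in LKO, against 6005 and 6158 bp for first-intron peaks. Only 12.1% of WT later-intron peaks (11.2 to 12.97%) lay within 5 kb of a TSS, compared with 46.2% (44.6 to 47.7%) of first-intron peaks. RefSeq placed 93.3% of the WT and 93.5% of the LKO centres only in later introns, and 5.90% and 5.61% also in the first intron of another transcript. Chromosome X held 29 WT and 11 LKO later-intron peaks, or 0.536% and 0.318%.

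The gene assigned by nearest TSS was often not the gene whose intron held the peak. It was another gene for 33.5% of WT later-intron peaks (32.3 to 34.8%) and 33.6% of LKO ones (32.0 to 35.1%), against 7.23% (6.45 to 8.08%) and 6.998% (6.05 to 8.07%) of first-intron peaks. Of these reassigned WT peaks, 38.1% went to a noncoding transcript. Their median distance was 32102 bp to the assigned TSS and 80358 bp to that of the host. The host gene is therefore named here beside the assigned gene wherever they differ.

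Later-intron peaks were spread over many genes, some of which held several. The 5396 WT peaks with a host in RefSeq lay in 2880 genes. Of these genes, 1122 held at least 2 peaks, 182 held at least 5 and 24 held at least 10. The LKO peaks lay in 2124 genes, of which 82 held at least 5. The lists had 1839 host genes in common, 63.9% of the WT hosts and 86.6% of the LKO hosts.

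Prkce, which encodes protein kinase C epsilon, held the most WT later-intron peaks. It had 20 in WT and 9 in LKO, spread over introns 2 to 12 and 250 kb. Log2 tags of its WT peaks ran from 3.05 to 6.67 in replicate 1 and from 3.14 to 6.97 in replicate 2. The nearest-TSS rule assigned 0 of the 20 to Prkce, 15 to 2010106C02Rik and 5 to Epas1, which encodes HIF-2 alpha. Itpr1, an inositol trisphosphate receptor gene, held 16 in WT and 7 in LKO, and 11 of the 16 were assigned to Mir7661. Kalrn, which encodes a guanine nucleotide exchange factor, held 15 and 8, and 11 of the 15 were assigned to Umps. Rbm47, an RNA-binding protein gene, held 15 and 9 within introns 2 and 3, and 14 of the 15 were assigned to Rbm47 itself. Foxp1, a forkhead repressor gene, held 14 and 9, all 14 assigned to Foxp1. Mtss1 also held 14 and 9, with 8 of the 14 assigned to Mtss1 and 6 to Ndufb9. Per Mb of later intron, these genes had 27.8 (Foxp1) to 124.1 (Mtss1) WT peaks, against 7.29 over all RefSeq genes with at least 2 introns. They were picked for their WT peak counts, so the choice itself favours a high density.

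Later-intron peaks were then counted in lists of liver genes. The host counts below are set beside all RefSeq genes with at least 2 introns, of which 14.2% held a WT and 10.5% an LKO later-intron peak. Together these genes held 5370 WT and 3429 LKO peaks, so a lower LKO count was the general pattern. The lists were not matched for length or expression, and no set test was run.

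Bile acid genes had 16 WT hosts of 26 and 13 LKO hosts, with 28.0 WT and 20.3 LKO peaks per Mb of later intron, against 7.29 and 4.66 over all genes. Among transporters, Abcb4 was the strongest and has been described. Akr1d1, the reductase that sets the A/B ring junction of bile acids, had a peak in intron 3 of 8 (chr6:37540159-37540369) with log2 tags of 7.43 and 8.13 in WT and 7.69 and 7.36 in LKO. Its WT input value of 1.89 lay just above the limit of 1.85. Abcc2, the canalicular conjugate exporter, had a peak in intron 2 of 31 (chr19:43792622-43792832) with 6.08 and 7.11 in WT and 5.89 and 5.91 in LKO, where its input value of 2.99 was above the limit of 2.49. All 3 genes kept an LKO peak at the same place. Abcc3, a basolateral exporter, held 3 WT later-intron peaks and 0 in LKO, and its strongest, assigned to Ankrd40, had 4.92 and 5.69 log2 tags in WT. Abcg8, also of this gene list, held 3 WT and 3 LKO peaks.

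The genes of the FXR loop and FGF15 signalling had 10 WT hosts of 17 and 8 LKO hosts, with 29 WT and 19 LKO peaks. Hnf4a, which encodes a master regulator of hepatocyte genes, had the strongest, in intron 2 of 10 (chr2:163540744-163540954, assigned to Hnf4aos), with log2 tags of 7.43 and 8.31 in WT and 7.76 and 7.77 in LKO. The coactivator gene Ncoa1 had 6.34 and 6.86 in WT and 5.84 and 6.10 in LKO. Nr1h4, the gene of FXR itself, had 1 WT later-intron peak, in intron 7 of 8, of 3.53 and 3.50 log2 tags, at the 10.8th percentile of WT strength, and 0 in LKO. Gas2l3 was its assigned gene.

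Lipid genes had 20 WT hosts of 41 and 16 LKO hosts, with 58 WT and 32 LKO peaks, the highest WT density of the 8 lists at 46.0 per Mb. Lrp1, which encodes an endocytic receptor for remnant lipoproteins, had its strongest peak in intron 22 of 88 (chr10:127577291-127577501, assigned to Nxph4) with log2 tags of 7.13 and 8.02 in WT and 7.48 and 7.27 in LKO. Srebf2, the gene of the regulator of cholesterol synthesis, had one in intron 10 of 18 (chr15:82183739-82183949) with 7.34 and 7.62 in WT and 6.31 and 6.33 in LKO. Its assigned gene was Mir33, the microRNA that lies inside Srebf2. Dgat2, of triglyceride synthesis, had 6.42 and 6.78 in WT and 5.53 and 5.56 in LKO. Elovl6 held 9 WT and 2 LKO peaks, and Ppara held 8 and 4, while Lrp1 held 4 and 5.

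Glucose and insulin genes had 7 WT hosts of 21 and 6 LKO hosts. Slc2a2, which encodes the hepatocyte glucose transporter GLUT2, had a peak in intron 4 of 10 (chr3:28714448-28714658) with log2 tags of 7.63 and 8.35 in WT and 7.59 and 7.59 in LKO. Pik3r1, the regulatory subunit of PI3 kinase, had 7.07 and 7.50 in WT and 6.31 and 6.24 in LKO, and Stat5b, whose peak was assigned to Ghdc, had 6.88 and 6.62 in WT and 5.94 and 5.94 in LKO. Igf1 held 9 peaks in WT and 3 in LKO, while Insr held 4 in WT and 4 in LKO.

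Hepatocyte transcription factor and clock genes had 16 WT hosts of 31 and 9 LKO hosts. Per2 was the strongest and has been described, followed by Thrb, a thyroid hormone receptor gene, with 5.49 and 6.72 in WT and 5.68 and 5.78 in LKO, and Arntl, which encodes BMAL1, with 5.62 and 6.22 in WT and 4.50 and 5.00 in LKO. Plasma protein genes had 11 WT hosts of 37 and 5 LKO hosts, with 18.8 WT and 7.04 LKO peaks per Mb, led by C8a, a complement gene, with 6.88 and 7.34 in WT and 6.999 and 6.82 in LKO. The peak in F10, assigned to Proz, had 5.26 and 6.32 in WT, and that in Plg had 5.49 and 5.75. Drug and conjugation enzymes had 8 WT hosts of 24 (33.3%) and 2 LKO hosts (8.33%), Por and Gstm1. Their 21.1 WT peaks per Mb compare with 7.29 over all genes, and their 4.70 LKO peaks with 4.66. Their strongest peak, in Por and assigned to Mir7034, had 5.07 and 5.41 in WT and 4.85 and 4.65 in LKO. The strongest in Aldh1a1 had 4.78 and 5.09 in WT.

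Marker genes of other liver cells had 4 WT hosts of 23 and 3 LKO hosts. These were Csf1r of macrophages, Stab2 and Pecam1 of endothelium, and Reln of stellate cells. Their strongest peaks were at most 4.57 in WT replicate 1 and 5.57 in WT replicate 2. The part that cells other than hepatocytes had in the ChIP signal was not tested.

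Later-intron peaks were slightly weaker than first-intron peaks. Median log2 tags were 4.27 and 4.83 in the WT libraries, against 4.33 and 4.93 for first introns, and 4.83 and 4.62 in the LKO libraries, against 4.86 and 4.68. The gap of medians was -0.060 and -0.094 in WT and -0.035 and -0.057 in LKO, lower in 4 of 4 libraries. Among WT peaks with at least 10 estimated tags in both libraries it was 0.032, of the opposite sign. The strongest decile of each list held 8.80% of WT later-intron peaks (8.08 to 9.59%) and 8.94% of LKO ones (8.03 to 9.94%), compared with 14.1% and 15.1% of promoter peaks. Strength hardly varied with intron number, from 4.23 to 4.34 for the medians of WT replicate 1. Replicates correlated across later-intron peaks with Pearson's r of 0.850 in WT and 0.888 in LKO, as a description over peaks of the same libraries.

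Input values above the 95th percentile of the list were found at 3.31% of WT later-intron peaks and 4.70% of first-intron peaks, a difference of -1.39 points (95% Newcombe interval -2.23 to -0.591). In LKO the difference was -0.778 points, with an interval holding 0 (-1.82 to 0.217). Repeats masked most of the sequence in 4.40% of WT and 3.50% of LKO later-intron peaks, against 4.81% and 4.22% of first-intron peaks. Median GC content was 48.8% in WT and 50.2% in LKO.

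Of the WT later-intron peaks, 2687 (49.7%, 48.4 to 51.0%) overlapped an LKO peak by at least 1 bp. Of the LKO ones, 2695 (78.0%, 76.6 to 79.3%) overlapped a WT peak. The whole lists gave 49.5% and 79.4%. Compared with first introns, the WT share differed by -0.839 points (-2.89 to 1.22), with no difference shown, and the LKO share by -2.20 points (-4.28 to -0.0896). Within 20 strata of strength the LKO difference was -1.52 points (-3.47 to 0.437), and its interval then held 0. Overlap rose with strength, from 11.98% of later-intron peaks in the weakest WT decile to 97.7% in the strongest, and from 50.4% to 96.8% in LKO. Only 19 of the 2687 matched WT peaks had an LKO partner of another annotation class, and 0 had a partner in a first intron. Overlap was alike across intron numbers, between 47.6% and 50.7% in WT.

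**Figure D2:**
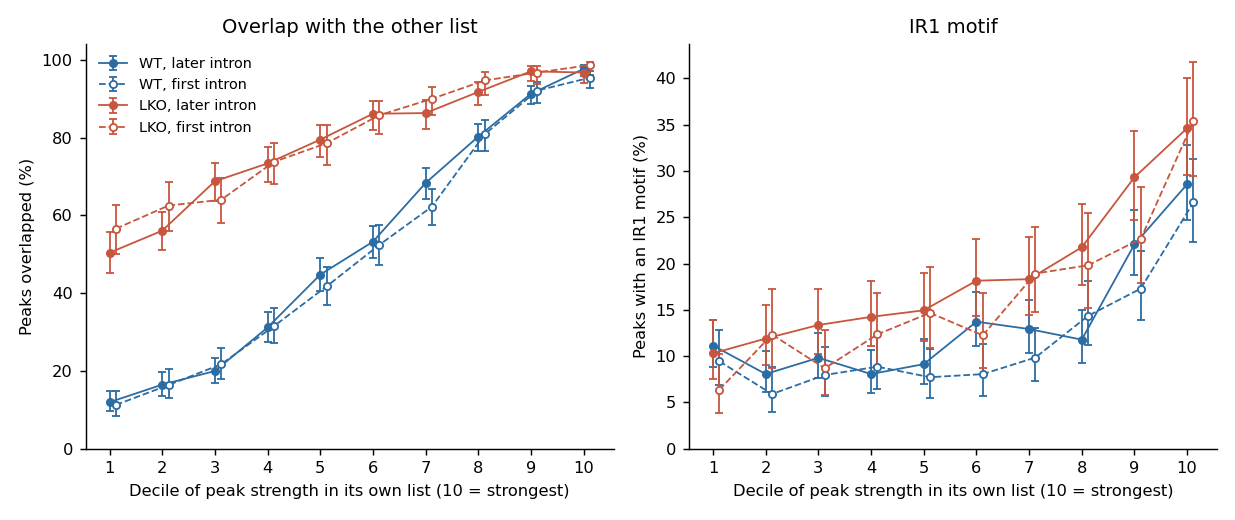
Share of peaks overlapped by the other list (left) and share with an IR1 motif (right), in percent, by decile of peak strength within the list, for later-intron (filled) and first-intron (open) peaks with 95% Wilson intervals. Overlap of WT later-intron peaks rises from 11.98% to 97.7% and the IR1 share from 11.1% to 28.6%, and the first-intron curves run close by.

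The strongest peaks found in 1 list only were uneven in kind. The sequences of the Trrap peak, the strongest in WT, and of the Med24 peak, the second in LKO, are shown because the first repeats AGGTCA along its length and the second holds an IR1 near its centre. An IR1 match with 2 mismatches is in capitals in each.
Trrap, chr5:144787970-144788180: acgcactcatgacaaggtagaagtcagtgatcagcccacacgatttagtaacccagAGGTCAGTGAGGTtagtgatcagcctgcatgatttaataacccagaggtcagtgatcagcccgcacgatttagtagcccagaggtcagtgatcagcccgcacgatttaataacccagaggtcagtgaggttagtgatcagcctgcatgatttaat
Med24, chr11:98709471-98709675: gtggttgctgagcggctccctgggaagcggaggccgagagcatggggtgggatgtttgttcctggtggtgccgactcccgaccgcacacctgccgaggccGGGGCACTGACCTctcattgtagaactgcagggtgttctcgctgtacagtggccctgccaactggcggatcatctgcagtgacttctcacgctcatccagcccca

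The Trrap peak (chr5:144787970-144788180, intron 13 of 70) had log2 tags of 6.96 and 7.36 and no LKO peak over it. It holds 4 copies of AGGTCA within a unit that recurs along the peak, and soft-masking marks 0.474% of its bases as repeat. The match in capitals carried C11G and C12G, and matches in other copies of the unit tie with it at 2 mismatches. The Capn8 peak (chr1:182602418-182602628, intron 7 of 20), in a calpain gene, had 6.53 and 6.76, and the Eif4h peak (chr5:134626694-134626904, intron 2 of 6), in a translation factor gene and assigned to Lat2, had 5.91 and 7.29. In LKO, the Itpr3 peak (chr17:27119946-27120150, intron 56 of 57), assigned to Uqcc2, had 7.76 and 7.998 and no WT peak over it. The Med24 peak (chr11:98709471-98709675, intron 19 of 25), in a Mediator gene and assigned to Csf3, had 7.10 and 7.22, and its IR1 match carried A1G and T4G. The Cacna1d peak (chr14:30292853-30293057, intron 3 of 46) had 6.53 and 6.89. The tables give no value for the other genotype at these places.

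An IR1 match of at most 2 mismatches, within 100 bp of the centre, was found in 13.3% of WT later-intron peaks (12.4 to 14.2%) and 18.4% of LKO ones (17.1 to 19.7%). Windows of the same size 2 kb away had it in 0.888% and 1.04%. Within the peaks the match was central, at most 25 bp from the centre in 71.6% of the WT and 75.3% of the LKO matches. First-intron peaks had it in 11.6% and 16.2%. The difference was 1.72 points in WT (0.358 to 3.06) and 2.16 points in LKO (0.198 to 4.09), so the share was higher in later introns in both lists. Within strata of strength it was 1.92 (0.591 to 3.25) and 2.30 points (0.387 to 4.21). Promoter peaks had it in 6.41% and 8.39%. At most 1 mismatch gave 3.29% and 4.46%, and the LKO difference to first introns, 0.767 points, then had an interval holding 0 (-0.271 to 1.77).

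The share of IR1 was highest among the strongest peaks of both lists, and it differed between matched and unmatched peaks in WT only. In WT it was 11.1% in the weakest decile, between 8.07% and 13.7% in deciles 2 to 8, and 28.6% (24.7 to 32.8%) in the strongest. In LKO it rose from 10.3% to 34.6% (29.5 to 40.1%). Matched WT peaks had it in 18.5% (17.0 to 19.97%) and unmatched ones in 8.16% (7.19 to 9.25%). In LKO the matched had it in 18.7% and the unmatched in 17.3% (14.8 to 20.2%). The unmatched peaks of the lists thus differed by more than their intervals. Unmatched WT peaks had median log2 tags of 3.74 and 4.33, compared with 4.97 and 5.47 for matched ones, and 17.4% of them reached 10 estimated tags in both libraries. For unmatched LKO peaks the medians were 4.32 and 4.16, and 99.1% reached that limit.

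Other layouts of 2 AGGTCA hexamers were scanned with spacers of 0 to 8 bases, both strands, with at most 2 mismatches. A window can count for several, since they share hexamers. IR1 stood out among inverted repeats, at 15.0 times its background in WT and 17.6 times in LKO, compared with 1.84 to 4.92 times for the other inverted repeats in WT. Direct repeats with 1 base, DR1, the element of HNF4A and PPARA with RXR, were as frequent as IR1 in WT, at 14.2% (13.3 to 15.1%), and less frequent in LKO, at 13.5% (12.4 to 14.6%). Their backgrounds were 3.41% and 3.66%. Everted repeats with 2 bases, ER2, peaked in their class at 5.73% and 5.99%, against 1.53% and 1.55%. At least 1 AGGTCA lay in 44.5% of WT and 44.9% of LKO later-intron peaks, against 13.2% and 13.8% of background windows.

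**Figure D3:**
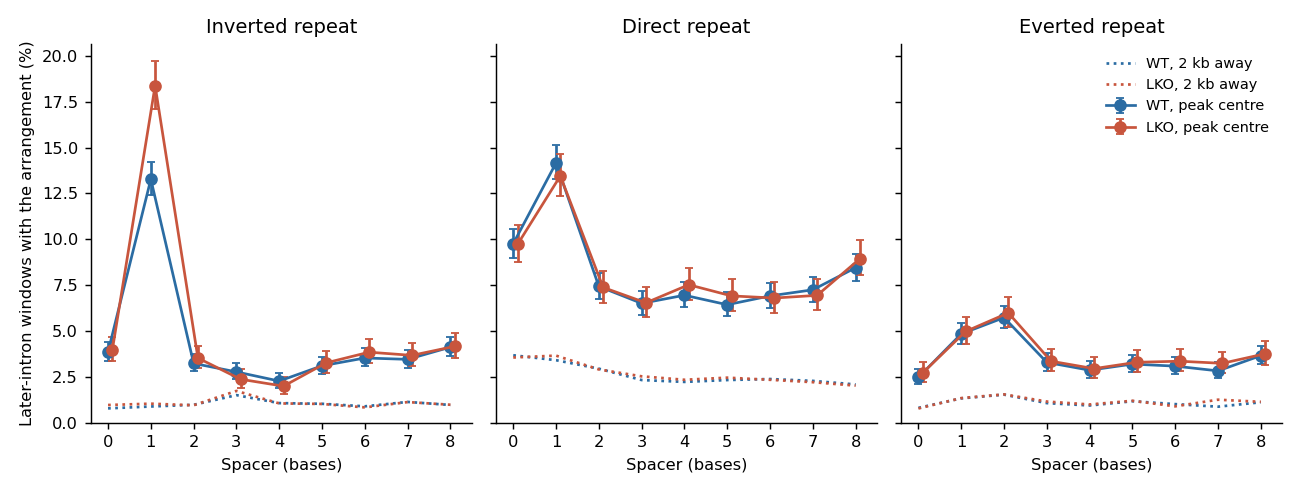
Share of later-intron windows (201 bases around the peak centre) that hold 2 AGGTCA hexamers as an inverted, direct or everted repeat, in percent, by spacer in bases, with 95% Wilson intervals, and the share in windows 2 kb away as dotted lines. The inverted repeat with 1 base stands out at 13.3% in WT and 18.4% in LKO, and the direct repeat with 1 base reaches 14.2% and 13.5%.

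Motifs of other liver factors were searched on both strands of the same windows. The forkhead motif TGTTTAC lay in 7.08% of WT and 7.09% of LKO later-intron peaks, against 2.76% and 2.58% of background windows. The HNF4 motif CAAAGTCCA lay in 1.98% and 1.56%, against 0.259% and 0.304%. The HNF1 motif, an inverted repeat of GTTAAT with 1 base and at most 2 mismatches, lay in 3.20% and 2.40%, against 0.804% and 0.709%. TTCNNNGAA, the core bound by STAT factors and contained in BCL6 sites, lay in 6.69% (6.06 to 7.39%) and 6.37% (5.60 to 7.23%), close to its background of 5.99% and 6.02%. The intervals of the differences to first-intron peaks held 0 for these 4 motifs in both lists. AGGTCA was more frequent in later introns, by 4.04 points in WT (2.01 to 6.06) and 3.45 in LKO (0.892 to 6.00).

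The authors normalized each genotype's table by itself, so levels at shared peaks are only described side by side. There were 2668 pairs in which both peaks lay in later introns, of 9918 shared pairs. Each value was centred on the median of all shared peaks in its library. The medians of the later-intron pairs were -0.05 and -0.07 in WT and -0.05 and -0.05 in LKO. The median LKO minus WT difference was 0.050, with 90% of the pairs between -0.82 and 1.22. With 2 libraries against 2, an exact permutation test cannot reach 0.05, and none was run.

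In 1541 pairs (57.8%) the WT and LKO values did not overlap, and over all shared pairs this share was 55.1%. Both LKO values lay above both WT values in 868 pairs (32.5%, 29.8% over all pairs) and below in 673 (25.2%, 25.2% over all pairs). These shares were near those over all pairs. The direction differed between pairs above and below a limit of 10 estimated tags. Of the later-intron peaks with a partner in the other list, 64.4% of WT and 99.5% of LKO ones reached it in both libraries. The split thus selects mostly on the WT values. Such a choice favours lower differences above the limit and higher ones below it. What depth itself contributed was not tested. Among the 1715 pairs with at least 10 estimated tags in all 4 libraries, LKO lay above in 22.3% and below in 36.4%. Their median difference was -0.12. Among the 953 pairs with fewer tags in some library, LKO lay above in 50.9% and below in 5.14%, with a median of 0.45. Libraries of 1 table were fitted together by the authors, which draws them towards each other, and this table effect and the genotype cannot be told apart.

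The direction of the difference went with the IR1 motif. The 491 pairs with an IR1 match had medians of 0.25 and 0.27 in the WT libraries and 0.41 and 0.46 in the LKO libraries. The 2177 pairs without had -0.10 and -0.12 in WT and -0.13 and -0.13 in LKO. The median LKO minus WT difference was 0.27 (quartiles -0.09 and 0.57) with the motif and 0.00 (-0.34 and 0.42) without. Both LKO values lay above both WT values in 48.5% of the pairs with the motif and 28.9% of those without, and below in 15.1% and 27.5%. The gap of 0.27 between the sets compares peaks within the same libraries, so a constant added to a library does not change it. The tables were fitted separately, and the part of a difference in their scale was not tested. The table effect and the genotype cannot be told apart in the gap either. The gap was 0.27, 0.30, 0.19 and 0.24 in the 4 pairings of 1 WT with 1 LKO library.

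The difference was graded by the quality of the match. It was 0.24 for the 12 pairs with 0 mismatches, 0.37 for 112 with 1, 0.25 for 367 with 2, 0.07 for 775 with 3, -0.02 for 1013 with 4 and -0.05 for 389 with 5 or more. The share with LKO above fell in the same order, from 66.7% (39.1 to 86.2%) and 61.6% (52.3 to 70.1%) to 43.9%, 33.7%, 27.0% and 24.4%. Pairs without IR1 but with a DR1 had -0.05, and those with an ER2 had -0.14, with LKO above in 17.2% and below in 34.3% of 134 pairs.

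**Figure D4:**
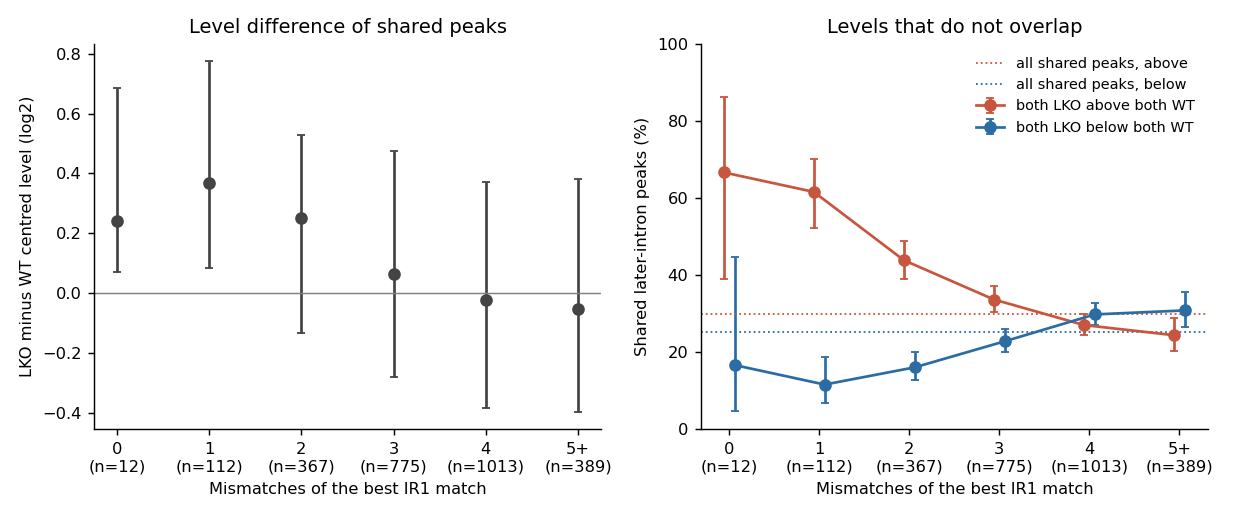
Left, LKO minus WT centred level (log2) of shared later-intron peaks by the number of mismatches of the best IR1 match, as median with quartiles. Right, share of those pairs in percent in which both LKO values lie above or below both WT values, with 95% Wilson intervals and the shares over all 9918 shared pairs as dotted lines. The share above falls from 61.6% at 1 mismatch to 24.4% at 5 or more.

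The gap held at every level of binding that was examined. In 5 groups of pairs by mean level, the median difference with the motif was 0.62, 0.28, 0.30, 0.19 and 0.25 from the weakest to the strongest, and without it 0.27, 0.01, -0.06, -0.11 and -0.04. Among pairs with at least 10 estimated tags in all 4 libraries the gap between the sets was 0.35. That limit selects mostly on the WT values, so this gap is not independent of it. It kept 344 of 491 pairs with the motif and 1371 of 2177 without. This split by motif was chosen after seeing the data. The gap was not particular to later introns. It appeared in first introns (0.21 with, 0.00 without), at promoters (0.25 and -0.02) and in intergenic sequence (0.20 and -0.01). GC content had medians of 48.3% and 50.2% in the pairs with and without the motif. Across the 2668 pairs it correlated with the difference at r = 0.015, as a description over peaks of the same 4 libraries.

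The strongest shared later-intron peaks held about the same place in both genotypes, with 1 exception. Of the 8 with the highest WT mean among those with input at or under the 95th percentile in both tables, the first lay in Cdk8, which encodes a kinase of the Mediator complex. This peak (chr5:146284066-146284276, intron 5 of 12) had log2 tags of 8.26 and 9.24 in WT and 8.27 and 8.34 in LKO. Centred, the WT level was 3.48 ± 0.32 and the LKO level 3.36 ± 0.19 (log2, SD, n = 2). The peak in Sephs1 (chr2:4902277-4902487, intron 7 of 8) was assigned to Phyh, the peroxisomal enzyme of phytanic acid breakdown, and stood at 3.45 ± 0.43 and 3.30 ± 0.21. The peaks in Tfap2e, Nln, Gabbr2 and Dapk1 stood at 3.12 to 3.43 in WT and 2.94 to 3.24 in LKO. The Ttbk1 peak (chr17:46484041-46484251) stood at 3.22 ± 0.24 and 2.76 ± 0.04, and its values did not overlap. Nor did those of Tfap2e and Gabbr2, all 3 lower in LKO. Ranking by WT mean favours lower LKO values, and over all shared pairs the values did not overlap in 55.1%. Those in Ttbk1, Dapk1 and Sec24d had an IR1 match with 2 mismatches. The Usp18 peak, with 1 mismatch, had a higher WT mean than the Dapk1 and Sec24d peaks but was outside the input limit in LKO.

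The exception lay in intron 17 of 22 of Sec24d, a gene of the COPII coat, with Mettl14 as its assigned gene (chr3:123353749-123353959). Log2 tags were 7.78 and 8.91 in WT and 6.29 and 5.93 in LKO. Its centred level was 3.07 ± 0.43 in WT and fell by 1.91 to 1.16 ± 0.12 in LKO. Its LKO input value of 2.49 lay just inside the limit. Its IR1 match, at the very centre, carried A1C and A10G, and its sequence is shown beside that of the Cdk8 peak, which held 1 AGGTCA and no IR1 match within 2 mismatches. Capitals mark the IR1 match of Sec24d.
Sec24d, chr3:123353749-123353959: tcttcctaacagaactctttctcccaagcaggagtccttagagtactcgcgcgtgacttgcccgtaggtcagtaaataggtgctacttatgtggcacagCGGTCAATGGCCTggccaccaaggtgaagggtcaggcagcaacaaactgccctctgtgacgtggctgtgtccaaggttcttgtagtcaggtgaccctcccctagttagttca
Cdk8, chr5:146284066-146284276: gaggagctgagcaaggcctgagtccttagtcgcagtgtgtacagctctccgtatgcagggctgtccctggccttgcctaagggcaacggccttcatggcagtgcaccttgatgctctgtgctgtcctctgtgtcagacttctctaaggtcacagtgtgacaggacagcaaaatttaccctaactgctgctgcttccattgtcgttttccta

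The pairs with the largest LKO minus WT differences, chosen for them, are given without a test. Shoc2, a scaffold gene of RAS signalling, had a peak in intron 2 of 9 (chr19:53975215-53975425) with log2 tags of 5.55 and 5.71 in WT and 7.65 and 7.51 in LKO. Centred, this was 0.36 ± 0.25 against 2.63 ± 0.03. The Nedd9 peak (chr13:41410556-41410766, intron 2 of 7), in a focal adhesion scaffold gene, stood at 0.24 ± 0.12 and 2.23 ± 0.11. The Snd1 peak (chr6:28748432-28748642, intron 15 of 23) stood at -0.44 ± 1.12 and 1.62 ± 0.07, with Lrrc4 as its assigned gene, and its WT libraries were far apart, at 3.78 and 5.89 log2 tags. On the lower side, Rcan2, which encodes a calcineurin regulator, had a peak in intron 2 of 4 (chr17:43858116-43858326) with 6.30 and 7.18 in WT and 3.79 and 4.22 in LKO, and stood at 1.47 ± 0.25 and -0.94 ± 0.44. The Rad1 peak (chr15:10487423-10487633, intron 2 of 5), in a DNA damage checkpoint gene, stood at 0.67 ± 0.10 and -1.21 ± 0.19, and repeats masked 82.9% of it. In these peaks the WT and LKO values did not overlap.

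**Figure D5:**
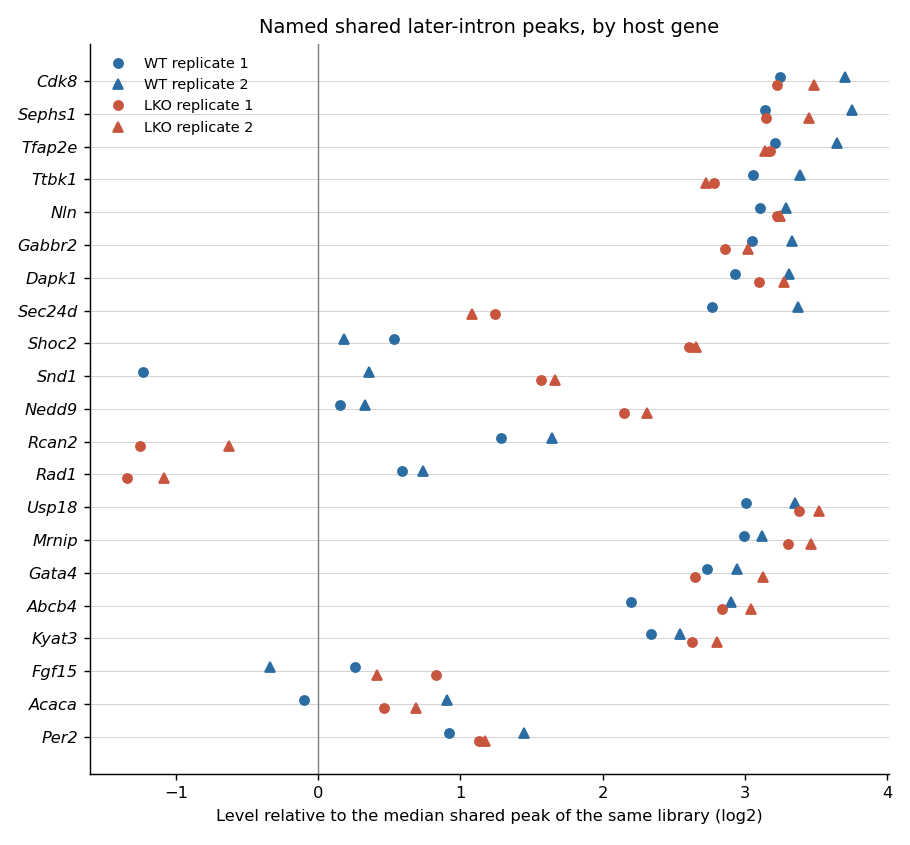
Level of the named shared later-intron peaks relative to the median shared peak of the same library (log2), by host gene, with 1 point for each of the 2 WT and 2 LKO libraries. The Sec24d, Shoc2, Snd1, Nedd9, Rcan2 and Rad1 peaks, chosen in part for their difference, lie apart between genotypes, and the Cdk8 values lie between 3.23 and 3.70.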

How the data were processed

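FXR ChIP-seq was analysed from 4 ChIP and 2 input libraries of mouse liver. Chromatin, per the labels, was crosslinked with DSG and formaldehyde, and precipitated with antibody E4B8P, and the reads were aligned to mm10. The submitters' processing notes name Bowtie 1.2 and HOMER 4.10. The authors called peaks with HOMER on pooled replicates against input, and the authors' comparison with input used DESeq2. The deposited per-library values were taken as regularized log2 tags, fitted by the authors jointly over the 3 libraries of a table and scaled to library totals. The authors' fold change, p-value and adjusted p-value of ChIP against input, and their peak score, were not used. Every listed peak had passed their filter of adjusted p under 0.05 and log2 fold over 1.

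Coordinates are 1-based. Intron number, host transcript and assigned gene came from the authors' annotation, and host genes, distances, sequence and repeat masking from RefSeq on GRCm38.p6, which has the coordinates of mm10. The host transcript was found for 99.8% of WT and 99.9% of LKO later-intron peaks. Estimated tags are 2 to the power of the value, times the library total over the mean total of its table. Strength is the mean of the 2 ChIP values. Shares have 95% Wilson intervals and their differences Newcombe intervals. Differences within 20 strata of strength used Mantel-Haenszel weights. IR1 was scored at 12 bases within 100 bp of the centre, and the most 5′ of tied best matches was taken. Background windows lay 2 kb to each side.

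The named peaks were the 8 strongest shared, the 3 strongest of each list alone, and the 3 highest and 3 lowest LKO minus WT differences with at least 10 estimated tags in all 4 libraries, all with input at or under the 95th percentile of their list. With no input limit they were the 5 WT host genes with most peaks, up to 3 hosts of each gene list, and the 5 strongest with at most 1 IR1 mismatch. Others named in the gene lists were chosen after their values were seen. The values of 1 gene that the rule names are not reported here. Members and gene lists were chosen with earlier results of these data known. The split of level differences by motif was chosen after seeing the data. Python 3.11.15 was used with matplotlib 3.10.9, scipy 1.17.1, numpy 2.4.6 and pandas 2.3.3. The motif search, the peak matching and the share differences were tested on simulated data. The alternatives tried were other overlap and motif rules, limits on strength and depth, other centrings and leaving out each replicate.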

Additional observations from a re-analysis of the deposited data

How the results depend on the processing

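No paired analysis was possible because the values set between genotypes come from no test in which replicate numbers could be a block. Pairing by number gave a gap between pairs with and without IR1 of 0.27 for replicates 1 and 0.24 for replicates 2. Of 54 alternatives, 30 stayed within the limits of the value reported, 22 moved it and 2 made an interval reach 0. The value changed sign under 5, and these were the WT strength gap at 10 tags, the WT overlap difference within strata of strength (1.01 points, with an interval holding 0 as before) and 3 scales of the LKO minus WT difference. At or above the median strength of each list, 2564 WT and 1639 LKO later-intron peaks remained, and at least 10 estimated tags in both libraries left 2203 in WT. The overlapped share became 52.4% in WT and 82.0% in LKO at or above the median strength, 70.4% and 65.9% with lists of the same length, and 76.5% in LKO under both a reciprocal overlap of 50% and centres within 100 bp. The LKO overlap difference to first introns was -1.52 points within strata of strength. IR1 shares were 3.29% and 4.46% at 1 mismatch, and 17.7% and 24.3% at or above the median strength. The LKO difference at 1 mismatch was 0.767 points. The strength gap was 0.032 in WT at 10 tags and -0.023 in LKO with means. It was -0.094 to -0.060 in WT and -0.057 to -0.035 in LKO when 1 replicate was left out. The median LKO minus WT difference was -0.017 when centred on the mean, -0.28 without centring and -1.10 on library totals, so its sign depends on the scale, and without each replicate in turn it was 0.040 to 0.065. Pairs without overlap numbered 1007 of 1715 at 10 tags in all 4 libraries, with LKO above in 383 and below in 624. That limit selects mostly on the WT values. The gap between pairs with and without IR1 was 0.20 to 0.31 without each replicate, and 0.35 at 10 tags. WT replicate 2 limits statements on weak WT peaks.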

Other observations

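Unmatched LKO later-intron peaks carried an IR1 match about as often as matched ones, at 17.3% (132 of 761) and 18.7% (503 of 2695). Unmatched WT peaks carried it at 8.16% (222 of 2721). Unmatched peaks also differed in sequence, with repeats masking more than 50% of the peak in 5.48% of the WT ones and 3.81% of the LKO ones. Median GC content was 47.9% in unmatched WT peaks and 50.2% in unmatched LKO peaks. The part of depth or of the separate peak calling in this was not tested.

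Genes of drug and conjugation enzymes held 9 WT and 2 LKO later-intron peaks, and the LKO density of 4.70 per Mb was near the 4.66 over all genes. Those of plasma protein genes numbered 16 and 6. Over all RefSeq genes with at least 2 introns the counts were 5370 and 3429. Of the drug enzyme genes without an LKO host peak, Aldh1a1 had the strongest WT peak. It had 4.78 log2 tags in WT replicate 1 and 5.09 in WT replicate 2, near the WT list medians of 4.34 and 4.91. The peaks in Cyp4a14, Ephx1, Gsta3 and Cyp3a11 were much weaker, at percentiles 1.42, 11.1, 14.4 and 17.3 of WT strength. In deciles 1 and 2 of WT strength, 11.98% and 16.5% of later-intron peaks overlapped an LKO peak.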
